A study of Canis lupus familiaris with 31 samples.

Results

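The Frizzled receptors FZD1 to FZD8 and the Wnt co-receptors LRP5 and LRP6 were examined in whole blood of Miniature Schnauzers with and without HTG, the abnormal rise of blood triglycerides. The 10 genes were found by their gene symbols among the 32704 gene rows of the table of counts, of which 18601 carry a symbol. RNA was sequenced from 13 dogs with spontaneous HTG (8 male, 5 female) and 18 control dogs with normal triglycerides (10 male, 8 female), with 1 library per dog. Both groups were pet dogs of this 1 breed, nearly all neutered and sampled once, and the sample labels name group and sex but no age. Each library was made with a total RNA kit after ribosomal RNA removal. The cell counts of these blood samples are not used here, so that a change in the number of cells of a type and a change in RNA per cell cannot be told apart.

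Frizzled proteins are receptors with several membrane passes that bind secreted Wnt proteins. LRP5 and LRP6 are single-pass receptors that join a Wnt-bound Frizzled to start canonical signaling, in which the cytoplasmic protein β-catenin is spared from degradation and enters the nucleus to act with TCF and LEF transcription factors. FZD3 and FZD6 are known mainly for planar cell polarity signaling, which does not need β-catenin, and FZD4 also serves as the receptor of norrin, the product of NDP, in blood vessels. FZD1, FZD2 and FZD7 form 1 closely related subgroup, FZD5 and FZD8 another. Related receptors share stretches of sequence, and the study set reads that mapped to several places apart from those assigned to a gene, so that such reads may be missing from their counts. The gene positions were not used here.

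Counts per dog ranged from 14524659 to 41533599, so that 3 counts, taken as the floor, corresponded to between 0.0692 and 0.392 CPM (counts scaled by library size with edgeR's TMM method). No 2 libraries of 1 group agreed within sampling noise. The blood was rich in neutrophil transcripts, whose 7 markers summed to between 4136 and 17459 CPM per dog. One library, control 3, stood apart, with 15228 genes detected against at least 17133 in every other dog, and the values that change most without it are given both ways. The dogs also differed in the counts of small RNA rows, with 10 dogs (5 cases, 5 controls) on the high side and 21 dogs on the low side of a split by these counts. The split was set at 10 dogs because libraries of 10 dogs, 5 cases and 5 controls, had been prepared earlier for a pilot, for which a batch covariate was used in DESeq2. The labels do not say which dogs these were, so the main test has no batch term. The high side has the size and make-up of that batch, and whether it holds the same dogs was not tested. The DESeq2 fit with the split is the one nearest in form to the study's model.

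All receptor values below are CPM per dog, given as the lowest, the median and the highest in each group. No transcript lengths were used, so that an order of CPM between genes is an order of counts and not of transcript numbers. LRP6 (ENSCAFG00000013324) was counted in every dog, between 230 and 3006 times. FZD1 (ENSCAFG00000001906) had 0 counts in 30 dogs and 3 counts in control 16, or 0.153 CPM. In all, 8 of the 10 passed edgeR's filter on low counts. FZD1 and FZD3 did not.

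FZD7 (ENSCAFG00000012407), a receptor known for canonical Wnt signaling in stem cells, had the smallest P between groups among the 8 receptors tested. Its level was 1.96, 4.29 and 7.98 CPM in the cases and 1.27, 2.47 and 4.96 CPM in the controls, on 20 to 201 counts per dog. The groups overlapped, but 11 of 13 cases lay above the control median, 4 cases lay above the highest control, and 8 controls lay below the lowest case. Cases averaged 4.31 ± 1.69 CPM (SD, n = 13) against 2.55 ± 1.01 CPM (SD, n = 18) for controls. In edgeR's quasi-likelihood test over all 13918 genes tested, FZD7 was higher in the cases by a log2 fold change of 0.76 (SE 0.20, 95% interval 0.34 to 1.17). The unadjusted P was 0.000722 and the adjusted P was 0.126, so that it did not pass the threshold of 0.05. Without control 3 the log2 fold change was also 0.76, with an adjusted P of 0.0594 in edgeR. DESeq2 on the same counts gave a log2 fold change of 0.76 with an adjusted P of 0.0472, past the threshold, and with the small RNA split as a covariate 0.74 with an adjusted P of 0.0262. FZD7 is among the genes the study chose on these same dogs, so its direction is not independent evidence. The study's own log2 fold change for FZD7, with batch in the model, was larger than in any fit here.

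At the adjusted threshold, 0 of the 8 tested members passed in edgeR, against 0.0359% of all genes tested, or 5 genes. That share is small and unstable, since 154 genes and again 0 members passed without control 3. At an unadjusted P under 0.05 FZD7 alone passed, which is 1 of 8 members, against 9.81% of all genes tested (5.04% higher and 4.76% lower in the cases). DESeq2 called 1 member, against 0.526% of the genes it tested, and 0.704% with the split as a covariate. Fold changes on the log2 scale were above 0 for 4 of the 8 tested members and below 0 for 4. Their median was 0.07 over these members and −0.02 over all genes tested.

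**Figure D1:**
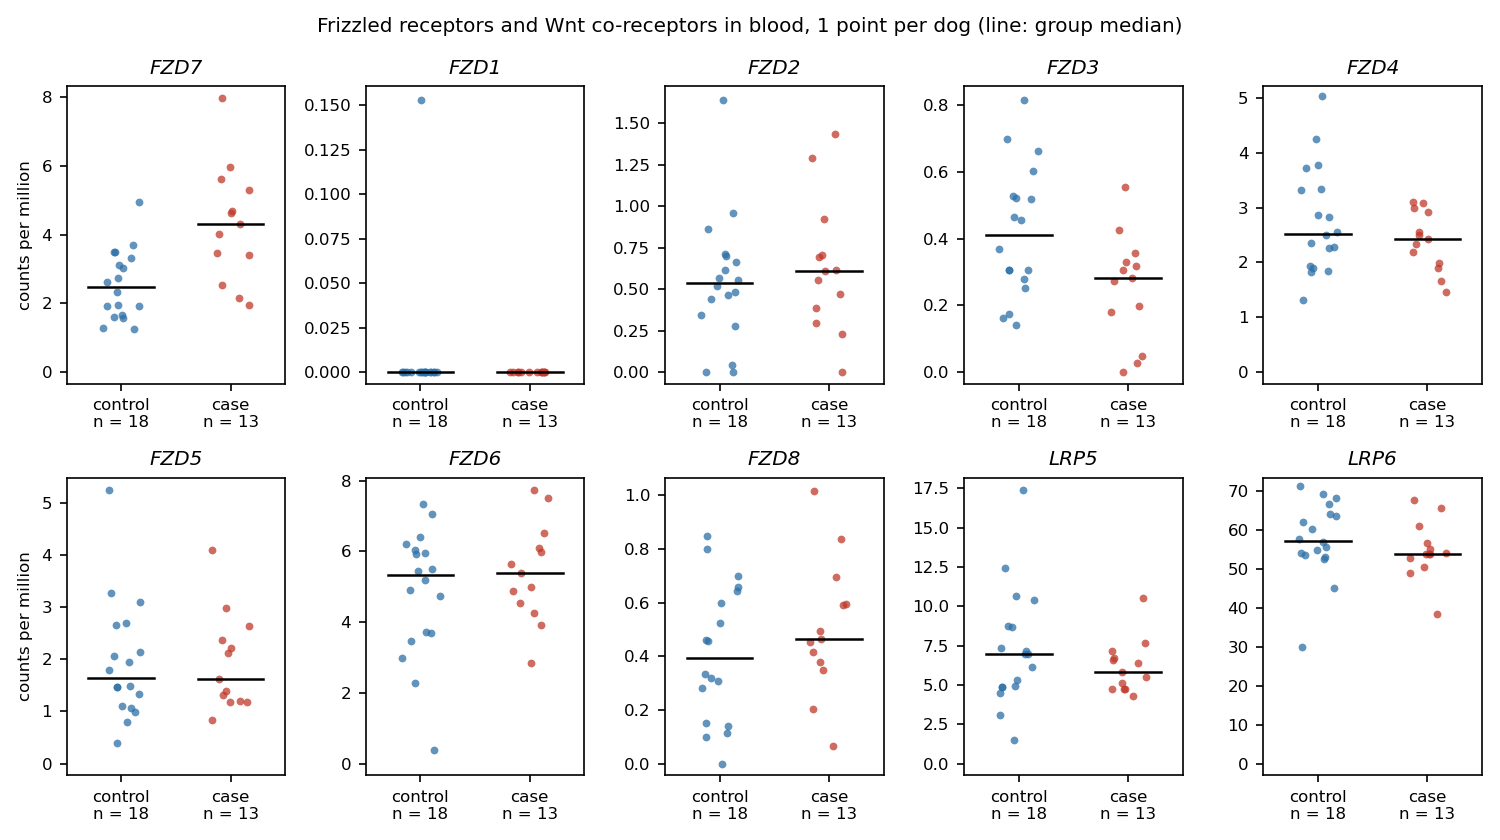
Level of each gene in CPM (vertical axis, linear, a separate scale for each gene) in 18 controls (blue) and 13 cases (red), with 1 point per dog and a line at the group median. The FZD7 points of the cases lie around a median of 4.29 CPM against 2.47 CPM in the controls, while the points of the other tested genes overlap over most of their range.

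FZD2 (ENSCAFG00000014134), a receptor used by both canonical and noncanonical Wnts, was close to the floor. It ranged from 0 through 0.610 to 1.43 CPM in the cases and from 0 through 0.538 to 1.64 CPM in the controls, with 0 counts in 3 dogs and at most 31. The ranges overlapped almost wholly, and the log2 fold change was 0.18 (SE 0.40, edgeR adjusted P = 0.923). The interval, −0.64 to 0.99, is wide enough to hold the FZD7 value, and the FZD2 value moved from 0.019 without case 1 to 0.35 without control 13.

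FZD5 (ENSCAFG00000013547), a canonical receptor, had 0.834, 1.63 and 4.08 CPM in the cases and 0.392, 1.63 and 5.24 CPM in the controls. The medians were the same to 3 digits, with a log2 fold change of −0.01 (SE 0.27, edgeR adjusted P = 0.993), and −0.08 (SE 0.25) without control 3. Its relative FZD8 (ENSCAFG00000003672) had 0.0660, 0.465 and 1.02 CPM in the cases and 0, 0.395 and 0.847 CPM in the controls, on at most 20 counts per dog. Counting error alone would give FZD8 a coefficient of variation of 31.6%, and the observed one was 56.5%. Its log2 fold change was 0.27 (SE 0.32, edgeR adjusted P = 0.834), with an interval of −0.39 to 0.93.

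FZD4 (ENSCAFG00000004399) had 1.45, 2.43 and 3.10 CPM in the cases and 1.31, 2.52 and 5.03 CPM in the controls. The 6 highest FZD4 values all belonged to controls, led by control 13, but 5 of 13 cases lay above the control median. The log2 fold change was −0.22 (SE 0.16, 95% interval −0.55 to 0.11, edgeR adjusted P = 0.695).

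FZD6 (ENSCAFG00000000654) had 2.84, 5.40 and 7.72 CPM in the cases and 0.392, 5.32 and 7.33 CPM in the controls. The lowest value was that of control 3, where FZD6 had 3 counts, and the next lowest control, control 7, had 2.27 CPM. Cases and controls otherwise covered nearly the same range, and the log2 fold change was 0.15 (SE 0.20, edgeR adjusted P = 0.86) and 0.08 (SE 0.15) without control 3. FZD3 (ENSCAFG00000008293), the other polarity receptor, had 0, 0.283 and 0.556 CPM in the cases and 0.142, 0.413 and 0.817 CPM in the controls, from 0 to 8 counts per case and 3 to 19 per control. Both groups lay near the floor, and the mean difference, cases minus controls, was −0.167 CPM (two-sided permutation test with 100000 resamples, P = 0.0184, not adjusted over genes). Without control 3 the difference was −0.161 CPM (permutation test, P = 0.0265). Across all genes FZD3 did not pass, with an adjusted P of 0.423 in edgeR without the filter, 0.408 in DESeq2 and 0.352 in DESeq2 with the split. In the same order its log2 fold change was −0.73 (SE 0.36), −0.75 (SE 0.34) and −0.79 (SE 0.34), on these low counts.

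For both co-receptors the difference between the groups was smaller than the spread between dogs. LRP5 (ENSCAFG00000010871), which is best known from bone mass and retinal vessels, had 4.27, 5.84 and 10.5 CPM in the cases and 1.52, 6.97 and 17.4 CPM in the controls. Control 3 held the highest value and control 8 the lowest, so that the controls covered the whole range of the cases. The value of control 3 came from 133 counts and the lowest TMM factor of all dogs, 0.527 against a median of 1.02, which raises its CPM. Without control 3 the highest control had 12.4 CPM. The log2 fold change of LRP5 was −0.24 (SE 0.22, edgeR adjusted P = 0.758), and −0.14 (SE 0.20) without control 3. LRP6 had 38.5, 53.9 and 67.7 CPM in the cases and 30.1, 57.3 and 71.5 CPM in the controls. It varied least among the tested members, with a biological coefficient of variation of 17.3% in edgeR against 28.4% to 65.3% for the others. Its log2 fold change was −0.08 (SE 0.087), with the narrowest interval of the members, −0.25 to 0.10. Without control 3 it was −0.12 (SE 0.067, edgeR P = 0.0865, adjusted P = 0.389).

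**Figure D2:**
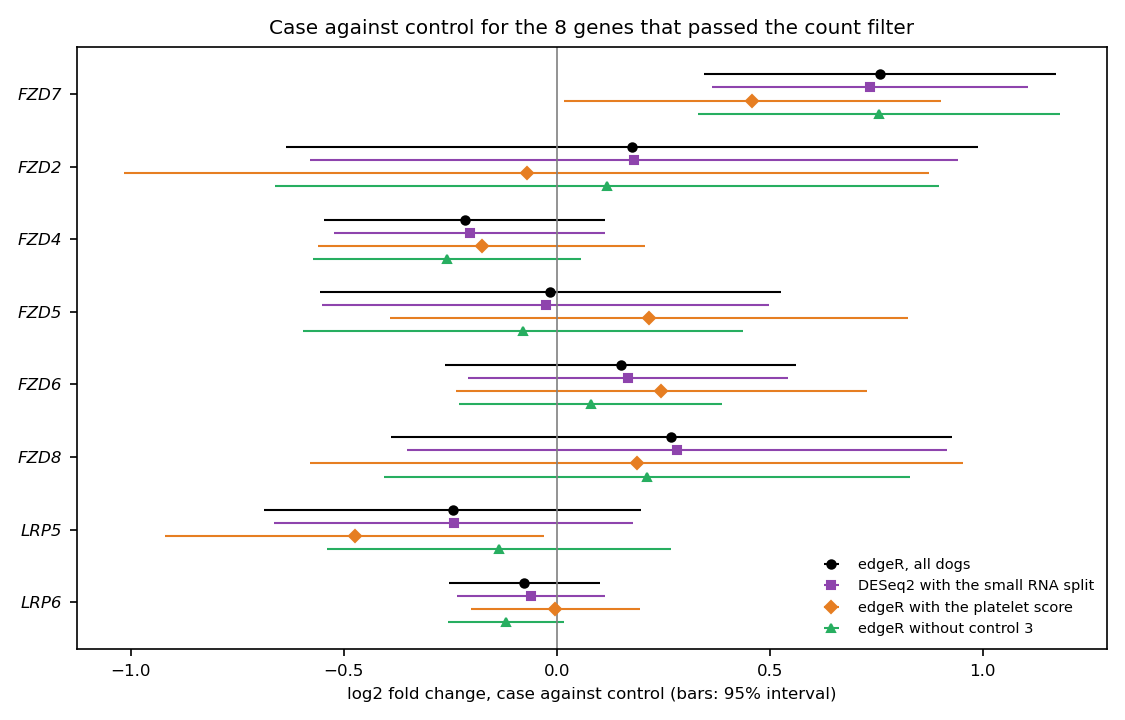
Log2 fold change of cases over controls (horizontal axis) with 95% intervals for the 8 genes that passed the filter, in edgeR with all dogs, DESeq2 with the small RNA split, edgeR with the platelet score as a covariate, and edgeR without control 3. The FZD7 interval lies above 0 in all 4, with values from 0.46 to 0.76, and 0 lies within all intervals of the other genes except that of LRP5 with the platelet score, at −0.47.

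FZD7 was also set against each other receptor within the same dog, where the scaling of the library largely cancels. It does not cancel at low counts, where log2 CPM is set in part by the prior count of 2. FZD2 had under 10 counts in 8 dogs and FZD8 in 14 dogs, and FZD5 and FZD6 had 3 counts each in control 3. FZD7 was chosen for these ratios after its values were seen, so they are given without a test. In log2 CPM, FZD7 minus FZD4 averaged 0.76 ± 0.71 (SD, n = 13) across cases against −0.14 ± 0.76 (SD, n = 18) across controls, which is a difference of 0.90. FZD7 minus LRP6 differed between the groups by 0.80, FZD7 minus LRP5 by 0.85 and FZD7 minus FZD5 by 0.66. Against the other 3 tested members the difference was 0.48 for FZD2, 0.45 for FZD6 and 0.40 for FZD8. All 7 differences share the FZD7 values, and FZD7 had the largest log2 fold change of the tested members. Their positive sign therefore followed from that choice and does not make 7 separate results. Without control 3 they ran from 0.54 to 0.96.

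The values within each side of the small RNA split differed in size. FZD7 was itself higher on the high side, by a log2 fold change of 0.55 (SE 0.19). The case-control difference of FZD7 was 0.38 (SE 0.23, edgeR P = 0.121) on the high side and 0.91 (SE 0.24, edgeR P = 0.00112, adjusted P = 0.195) on the low side. The interaction of group and split, a test chosen after seeing the data, was −0.52 (SE 0.39, edgeR P = 0.188). LRP5 had −0.79 (SE 0.29, edgeR P = 0.0203, adjusted P = 1) on the high side, where control 3 lies, and 0.02 (SE 0.27) on the low side (interaction P = 0.0801 in edgeR).

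No member differed between the sexes at the adjusted threshold with group in the model, against 0.122% of all genes tested (17 genes), and 0 of 8 did at an unadjusted P under 0.05, against 4.89% of all genes. The largest of these was FZD8, lower in females by −0.57 on the log2 scale (SE 0.32, edgeR P = 0.0865). FZD7 averaged 4.98 ± 1.66 CPM (SD) in the 8 male cases, 2.39 ± 0.897 CPM in the 10 male controls, 3.23 ± 1.16 CPM in the 5 female cases and 2.76 ± 1.16 CPM in the 8 female controls. In males its log2 fold change was 1.06 (SE 0.25, edgeR adjusted P = 0.407), and in females it was 0.24 (SE 0.32, edgeR adjusted P = 0.878). The test of the difference between the sexes gave −0.84 (SE 0.40, edgeR P = 0.0468, adjusted P = 1). It did not pass the adjusted threshold, which 0% of all genes passed, while 3.93% of genes had an unadjusted P under 0.05. For the other 7 tested members the interaction P was at least 0.0725 in edgeR.

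Platelet transcripts moved with the same groups. All 9 tested platelet markers were higher in the cases, 7 of them at an unadjusted P under 0.05, with a median log2 fold change of 0.61 and 0 past the adjusted threshold. Their sum ranged from 869 to 4178 CPM in the cases and from 604 to 4421 CPM in the controls. SELP, the platelet adhesion molecule P-selectin, had the smallest P (log2 fold change 0.56, edgeR P = 0.00247, adjusted P = 0.226), and PPBP, a platelet chemokine and the marker with the highest CPM, had 0.14 (edgeR P = 0.556). The platelet score, the mean centred log2 CPM of these markers, was 0.58 higher in the cases (two-sided permutation test, P = 0.00562). Once the score entered the model, FZD7 had a log2 fold change of 0.46 (SE 0.22, edgeR P = 0.0427, adjusted P = 0.812), against 6.06% of genes at an unadjusted P under 0.05 in that fit. LRP5 had −0.47 in the same fit (SE 0.22, edgeR P = 0.0374, adjusted P = 0.812). Within groups, FZD7 correlated with the score with r = 0.44 (permutation test, P = 0.014, adjusted P = 0.127 over the 72 relations of members with scores) and Spearman's ρ = 0.44 (permutation test, P = 0.0165, adjusted P = 0.198) over 31 dogs, and 0.39 without the 2 dogs farthest from the median of FZD7. Within the sides of the small RNA split r was lower, at 0.12 (permutation test, P = 0.737) over the 10 dogs of the high side and 0.22 (permutation test, P = 0.335) over the 21 dogs of the low side, or −0.0063 on the low side without the 2 farthest dogs, and whether r differed from that of all dogs was not tested. The part of platelets in the FZD7 difference was not tested beyond this fit.

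**Figure D3:**
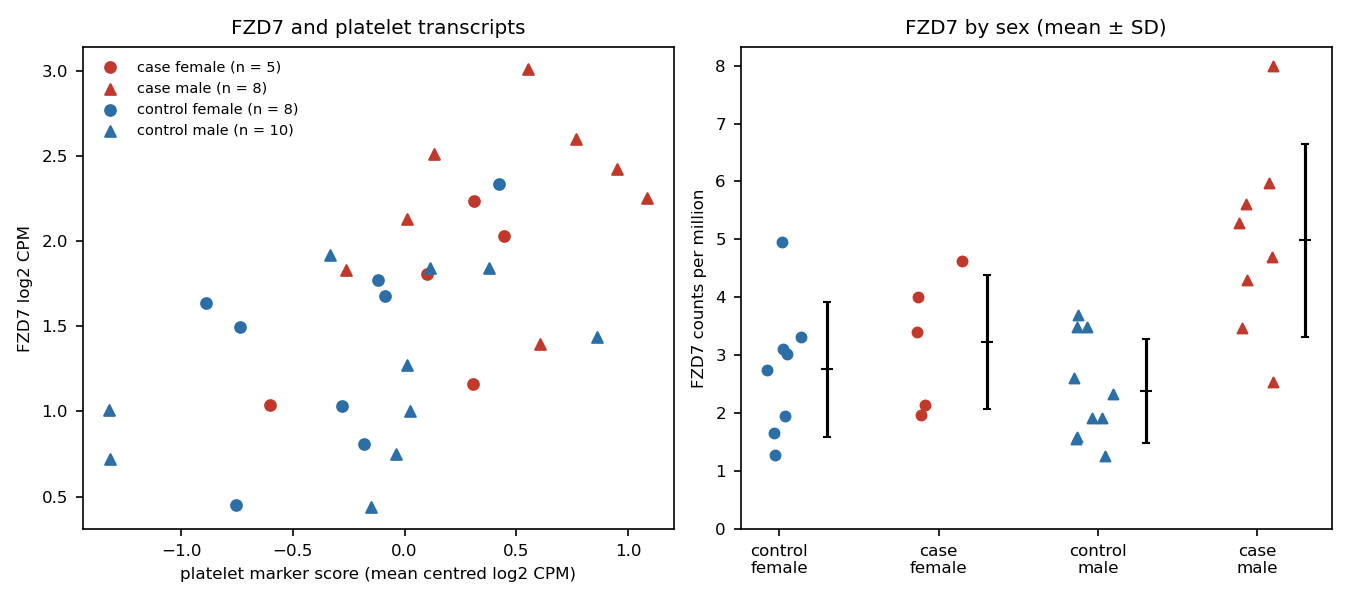
Left, FZD7 in log2 CPM (vertical axis) against the platelet marker score (horizontal axis, mean centred log2 CPM) in 31 dogs by group (color) and sex (shape). Right, FZD7 in CPM by sex and group with mean ± SD. Most cases, but not case 11 and case 12, lie to the right of most controls on the score. The male cases reach the highest FZD7 values, up to 7.98 CPM.

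Endothelial markers were measured as well, since FZD4 is also known from blood vessels. Of 12 listed markers 5 passed the filter, and 3 of these, EGFL7, ESAM and ERG, were higher in the cases at an unadjusted P under 0.05. TIE1 had 0.26 (edgeR P = 0.387) and TEK −0.19 (edgeR P = 0.233). With the platelet score in the model, 1 of the 5 had an unadjusted P under 0.05, ERG at 0.60 (edgeR P = 0.0344), while EGFL7 had 0.32 (edgeR P = 0.162) and ESAM −0.058 (edgeR P = 0.563). EGFL7, a secreted vascular protein, had a log2 fold change of 0.72 (edgeR P = 0.00239, adjusted P = 0.226), and ESAM, an adhesion molecule also carried by platelets, had 0.38 (edgeR P = 0.0247). The summed level of the endothelial marker list ranged from 54.8 to 134 CPM in the cases and from 37.3 to 119 CPM in the controls. The defining markers EMCN, ROBO4 and SOX17 had at most 2 counts in any dog, and the vascular cadherin CDH5 had a median of 5 counts. The endothelial score was 0.34 higher in the cases (two-sided permutation test, P = 0.00175, adjusted P = 0.0157 over 9 scores, against 0.0253 for the platelet score). FZD7 had r = 0.34 with it within groups (permutation test, P = 0.0693, adjusted P = 0.221). Of the other scores, the erythroid one differed by 0.65 (permutation test, P = 0.128) and the neutrophil one by 0.36 (permutation test, P = 0.0428, adjusted P = 0.128), and for the remaining 5 P was at least 0.197. By single genes at an unadjusted P under 0.05, 1 of 7 tested neutrophil and 1 of 6 erythroid markers were higher, 2 of 8 T cell markers and 1 of 6 basophil, eosinophil and mast cell markers were lower, and 0 of the monocyte, B cell and cytotoxic markers passed.

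The members were then compared with these scores within groups, to describe which blood cells each varied with. FZD2 followed the monocyte score with r = 0.70 (permutation test, adjusted P = 0.00216) and ρ = 0.61 (permutation test, adjusted P = 0.0364), and r was 0.63 both without control 3 and without the 2 dogs farthest from the median of FZD2. This was the 1 relation that kept an adjusted P of at most 0.05 without control 3 (0.0202). FZD4 also followed the monocyte score (r = 0.61, ρ = 0.53, permutation test, adjusted P = 0.0101 and 0.073), and r was 0.52 without control 3. FZD8 followed the cytotoxic cell score (r = 0.60, ρ = 0.58, permutation test, adjusted P = 0.0101 and 0.0364), with 0.54 without control 3. LRP6 ran opposite to the erythroid score (r = −0.66, ρ = −0.45, permutation test, adjusted P = 0.00684 and 0.198), and r was −0.50 without control 3 and −0.32 without the 2 dogs farthest from its median. These 4 were the relations of 72 that passed for r with all dogs, and on either side of the small RNA split alone 0 passed. On the high and the low side r was 0.80 and 0.58 for FZD2 with monocytes, 0.56 and 0.62 for FZD4 with monocytes, 0.69 and 0.60 for FZD8 with cytotoxic cells, and −0.81 and −0.56 for LRP6 with the erythroid score. The high side values rest on few dogs. Without the 2 dogs farthest from the median of the gene, r there was 0.85 for FZD2, 0.38 for FZD8, −0.76 for FZD4 and 0.12 for LRP6, so that the sign turned for FZD4 and LRP6. On the low side it was 0.37, 0.64, 0.50 and −0.34 in the same order.

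**Figure D4:**
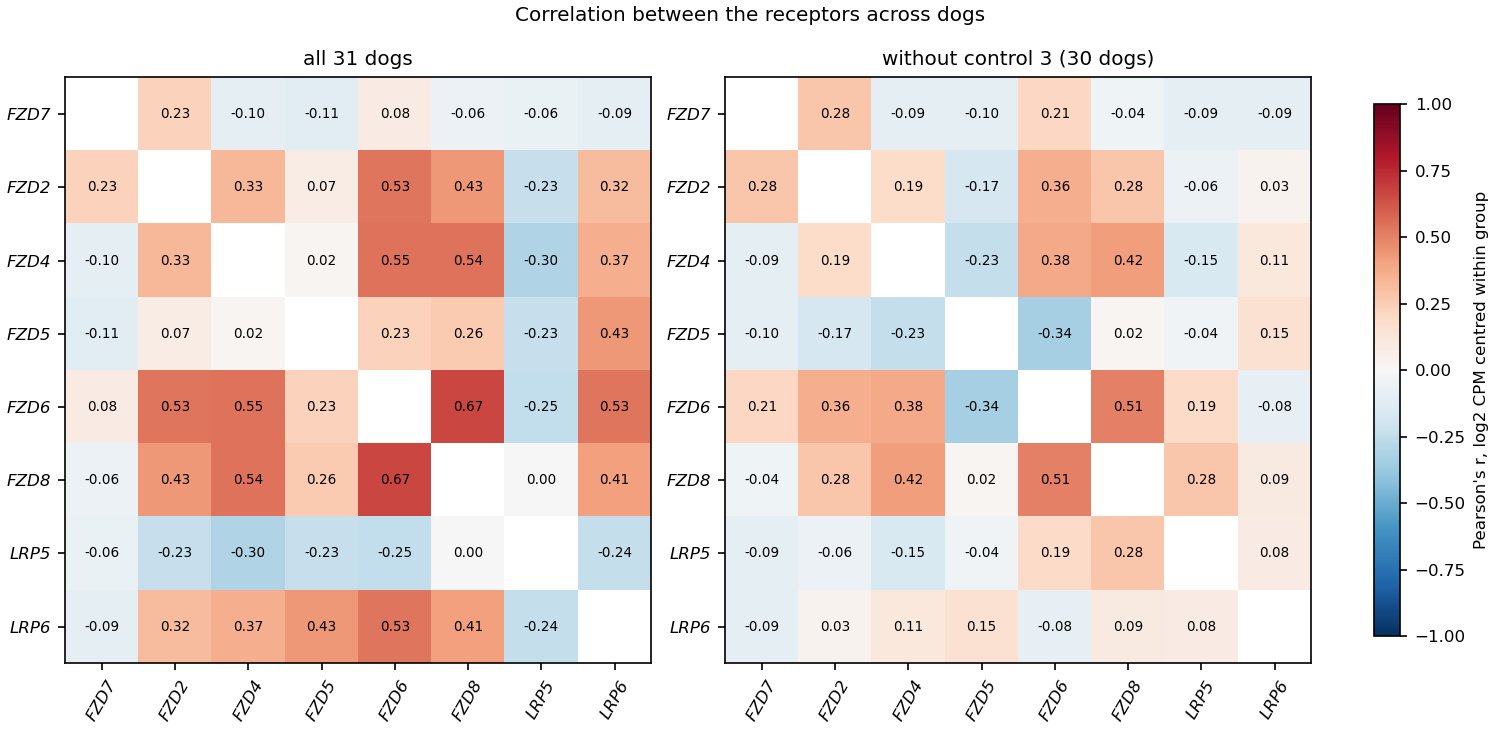
Pearson's r between the 8 tested genes (rows and columns) in log2 CPM centred within each group, over all 31 dogs (left) and without control 3 (right). With all dogs FZD2, FZD4, FZD6, FZD8 and LRP6 have positive values with each other, from 0.32 to 0.67, which range from −0.078 to 0.51 without control 3, while FZD7 has r of at most 0.28 with any other gene in either matrix.

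Among the members themselves, 18 of 28 pairs had a positive r, with a median of 0.16. The highest were FZD6 and FZD8 (r = 0.67, ρ = 0.46, permutation test, adjusted P = 0.00672 and 0.236), FZD4 and FZD6 (r = 0.55, ρ = 0.36, adjusted P = 0.0239 and 0.284 by permutation), FZD4 and FZD8 (r = 0.54, ρ = 0.42, adjusted P = 0.0239 and 0.236 by permutation) and FZD2 and FZD6 (r = 0.53, ρ = 0.30, adjusted P = 0.0284 and 0.424 by permutation). These 4 pairs passed the adjusted threshold for r and 0 pairs passed it for ρ. Without control 3, where all of FZD2, FZD4, FZD6 and FZD8 were low, 0 pairs passed, and FZD6 and FZD8 had r = 0.51. FZD6 with LRP6 went from r = 0.53 to −0.078 and FZD2 with LRP6 from 0.32 to 0.035. Without the 2 dogs farthest from the median of FZD8, FZD6 and FZD8 had r = 0.39. FZD7 had r between −0.11 and 0.23 with the other 7.

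Over all tested genes with a symbol, those with the pattern most like FZD7 within groups were TMUB2 (r = 0.76), ARHGAP21 (0.63), MGAT4B, a glycosyltransferase (0.63), BBS4, a ciliary protein (0.62), and CD109, a cell surface glycoprotein of platelets and activated T cells (0.59). Each r is over 31 dogs and describes the highest of many. For FZD2 they were FLT3, the receptor tyrosine kinase of progenitors and dendritic cells (0.78), and DPYSL2 (0.74). FZD4 was most like FLVCR2 (0.75) and ACSS3 (0.65), FZD5 like ITGA4 (0.65) and MPV17 (0.63), FZD6 like ZNF234 (0.86) and QTRT1 (0.84), and FZD8 like DUSP27 (0.76) and OSGIN2 (0.73). LRP5 was most like ARHGEF17 (0.67) and PTPRM (0.67), and LRP6 like PATL1 (0.81) and NSD1 (0.81). Of these genes ARHGAP21 passed the adjusted threshold between cases and controls (log2 fold change 0.54, edgeR adjusted P = 0.0196).

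The rest of the Wnt pathway was read from lists of 102 genes by role, of which 94 were found by symbol and 49 passed the filter. In edgeR 0 of the 49 passed the adjusted threshold. At an unadjusted P under 0.05 there were 7 (14.3%, against 9.81% of all genes tested), 4 higher and 3 lower in the cases, and the median log2 fold change was −0.01. With the platelet score in the model there were 3 of 49, against 6.06% of all genes tested.

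Of 24 ligands and ligand enhancers, 4 were tested and 0 passed at an unadjusted P under 0.05. WNT10B had the highest CPM, at 69.8 ± 8.14 CPM (SD, n = 13) across cases and 68.9 ± 15.4 CPM (SD, n = 18) across controls. The log2 fold changes were 0.02 (SE 0.090) for WNT10B, 0.13 (SE 0.18) for WNT3, 0.01 (SE 0.22) for WNT16 and −0.58 (SE 0.40) for the R-spondin RSPO2. WLS, the carrier that takes Wnt proteins to the cell surface, was counted at 250.2 ± 37.7 and 234.6 ± 60.9 CPM in the same order, and neither it nor PORCN, which attaches the lipid to Wnts, passed.

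Among other receptors, FZD9 had 0 to 17 counts per dog and FZD10 had 0 to 26, and both were below the filter. RYK, a Wnt-binding kinase-like receptor, had the highest CPM of the 5 tested (7.83 ± 1.73 and 7.95 ± 2.17 CPM in cases and controls, log2 fold change −0.02, SE 0.13). TSPAN12, the tetraspanin that assists FZD4 in norrin signaling, was at 1.88 ± 0.735 CPM in the cases and 1.29 ± 0.691 CPM in the controls (log2 fold change 0.54, SE 0.26, edgeR P = 0.045, adjusted P = 0.497), and had 0.60 (edgeR P = 0.057) with the platelet score. NDP, which encodes norrin, did not pass the filter. Of the 5 tested inhibitors that act at the receptor, NOTUM, the enzyme that removes the lipid from Wnts, was at 0.356 ± 0.262 CPM in the cases and 0.804 ± 0.853 CPM in the controls, on 0 to 42 counts (log2 fold change −1.07, SE 0.45, edgeR P = 0.0239, adjusted P = 0.412), and had −1.39 (edgeR P = 0.00369) with the platelet score. KREMEN1, a receptor of the DKK inhibitors, had the highest CPM of them and a log2 fold change of 0.07 (SE 0.13). RNF43 and ZNRF3, the ligases that remove Frizzled from the membrane, had −0.19 (SE 0.23) and −0.31 (SE 0.16).

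Of 18 transducers 9 had a log2 fold change above 0 and 9 below. β-catenin itself, CTNNB1, had the highest CPM at 111.6 ± 11.6 and 107.3 ± 13.7 CPM in cases and controls (log2 fold change 0.06, SE 0.065). DAAM1, a formin that links Dishevelled to the actin cytoskeleton, was higher at an unadjusted P under 0.05 (0.37, SE 0.13, edgeR P = 0.00848, adjusted P = 0.313), and 0.19 (edgeR P = 0.208) with the platelet score. Of 10 nuclear factors 8 had a value below 0, against 7587 of all 13918 genes tested. TLE1, a corepressor, had −0.44 (SE 0.15, edgeR P = 0.00564, adjusted P = 0.287), and −0.38 (edgeR P = 0.0332) with the platelet score, and TLE3, with the highest CPM of this list, had 0.13 (SE 0.080). NLK, a kinase that phosphorylates TCF and LEF factors, was at 116.1 ± 42.3 and 78.8 ± 23.2 CPM in cases and controls (log2 fold change 0.56, SE 0.16, edgeR P = 0.00106, adjusted P = 0.156). NLK is also among the genes the study chose on these dogs, and with the platelet score it had 0.12 (edgeR P = 0.256).

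Of 11 tested target genes 4 had a value above 0 and 7 below, against 7587 of all 13918 genes tested below 0. The target list shares TCF7 and LEF1 with the nuclear factors. CCND1, which encodes cyclin D1, was at 4.70 ± 1.87 CPM in the cases and 3.02 ± 0.948 CPM in the controls (log2 fold change 0.64, SE 0.18, edgeR P = 0.00144, adjusted P = 0.179), and 0.39 (edgeR P = 0.0717) with the platelet score. NKD1, a feedback inhibitor, had −0.37 (SE 0.17, edgeR P = 0.0352, adjusted P = 0.459), and −0.12 (edgeR P = 0.514) with the platelet score, and NOTUM, named above, is also a target. AXIN2, the feedback target most used as a readout of canonical signaling, was at 7.56 ± 2.25 and 6.95 ± 2.98 CPM in cases and controls (log2 fold change 0.13, SE 0.18, edgeR adjusted P = 0.863). LEF1, with the highest CPM of the list and also a T cell transcript, had −0.26 (SE 0.18).

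**Figure D5:**
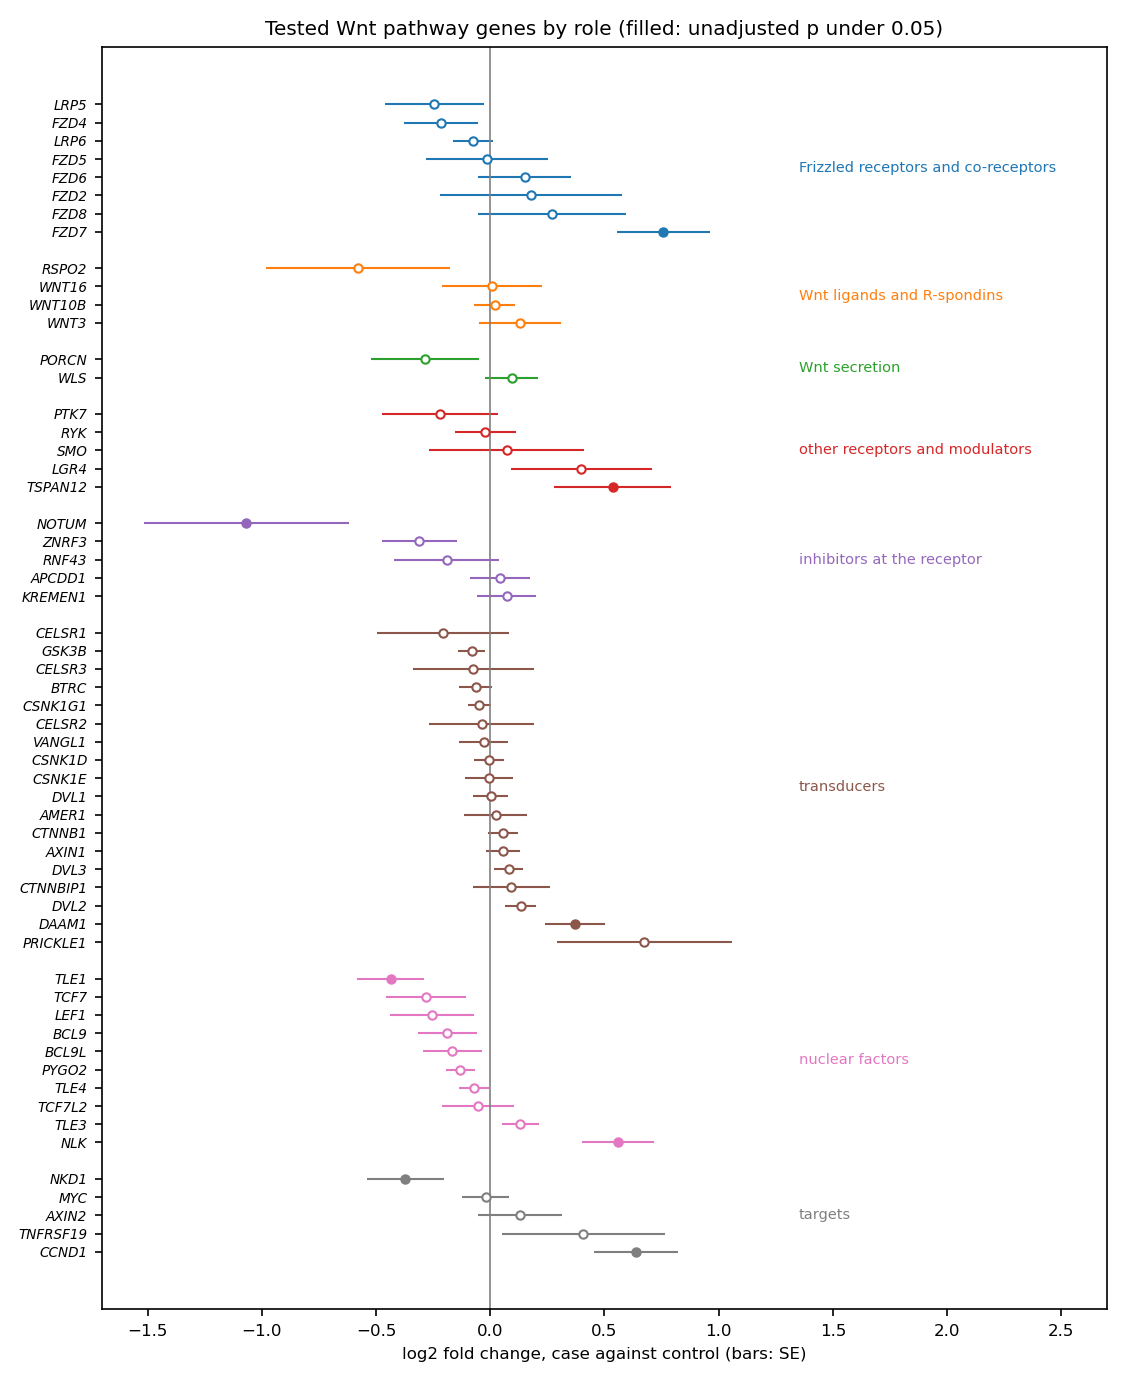
Log2 fold change of cases over controls with its SE (horizontal axis) for the 8 receptors and co-receptors and the 49 other tested Wnt pathway genes, grouped by role, each gene shown once. Filled points have an unadjusted P under 0.05. They are FZD7 among the receptors and 7 of the 49 others, 4 to the right and 3 to the left of 0.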

How the data were processed

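Whole-blood RNA of 31 dogs was sequenced. Per the labels and the paper's methods the authors trimmed reads with Trimmomatic, aligned them with HISAT2 and deposited raw counts of read pairs per gene. The counting program, its strand setting and its annotation are not given in the sources used here, so reads of overlapping or antisense genes may be included. Group and sex came from the labels. The study's methods name an earlier pilot batch and a batch covariate, but the labels do not say which dogs belonged to it, so no batch term was fitted.

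The counts were normalized with TMM in edgeR 4.0.16 (R 4.3.3), which also removed low genes (filterByExpr by group) and compared the groups by glmQLFit and glmQLFTest, with Benjamini-Hochberg adjustment over 13918 genes and a threshold of 0.05. SE is the absolute log2 fold change divided by the square root of F. CPM used TMM library sizes, and log2 CPM a prior count of 2. Sex was tested with group in the model, and its interaction with group. Pearson and Spearman correlations used log2 CPM centred within group and permutation within groups (100000 resamples, Python 3.11.15, scipy 1.17.1), adjusted over the pairs of a family. The edgeR test was checked on simulated counts. DESeq2 1.42.0, limma-voom 3.58.1, other normalizations, filters and covariates were alternatives.

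The genes, lists and tests were chosen with earlier results of these data known. Named pathway genes were FZD9 and FZD10, those with an unadjusted P under 0.05 and the one with the highest CPM in each list. For each tested member the genes with the highest r were named too. AXIN2, RNF43, ZNRF3, PORCN, NDP and the other tested ligands were named beyond this rule, after their values were seen. The small RNA split put the 10 dogs with the highest mean log2 CPM over small RNA rows on 1 side, after the size of the pilot batch. P-values set a difference or a correlation against the variation between dogs, and the floor and counting error cover counting only.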

Additional observations from a re-analysis of the deposited data

Results flagged for a closer look

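Of 37 groups of 5 to 10 dogs of 1 sex and group that were searched for a dog far from the others, 2 held one, and chance gives about 1 in 20. FZD1 was at 0.153 CPM in control 16, from 3 counts, and at 0 in the other 7 female controls. Any count above 0 would have set it apart there, and 3 counts are the floor, so that nothing is read from it. FZD8 was at 0.801 CPM in control 1, and the next highest female control had 0.335 CPM. The case-control difference of FZD7 in females minus that in males was −0.84 on the log2 scale, at an unadjusted P of 0.0468 in edgeR. The adjusted P was 1, so it did not pass the threshold.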

How the results depend on the processing

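The number of members past the adjusted threshold was 0 in edgeR and 1 (FZD7) in DESeq2 with or without the small RNA split, and 0 under the other 12 alternatives and in all 31 fits that left out 1 dog. FZD7 stayed positive under all 14 alternatives (0.38 to 0.91) and without any 1 dog (0.65 to 0.84, edgeR adjusted P from 0.0587 without case 12 to 0.266). Calls over all genes, 5 in edgeR, were 85 in DESeq2, 110 in DESeq2 with the split, 1 with at least 10 counts in every dog, 28 without case 1 and control 3, and 0 in limma-voom, with the platelet score, with a replicate block and on either side of the split alone. Leaving out 1 dog gave 1 to 154 calls, and the 154 came without control 3.

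Signs changed for 4 members, none of which passed the threshold in any fit. FZD2 had −0.14 on the high side of the split, −0.071 with the platelet score and −0.038 without case 1 and control 3. FZD5 had 0.023 in limma-voom, 0.072 on the low side, 0.22 with the platelet score and −0.16 to 0.13 without 1 dog, with 12 of 31 values above 0. Without 1 dog FZD2 had 0.019 to 0.35, FZD4 −0.26 to −0.15, FZD6 0.080 to 0.20, FZD8 0.16 to 0.36, LRP5 −0.33 to −0.14 and LRP6 −0.12 to −0.044. LRP5 had 0.020 on the low side and LRP6 0.034 on the high side. Wnt pathway genes at an unadjusted P under 0.05 were 7, and 3 with the platelet score, 9 in DESeq2 and 7 without control 3. Pairs of members past the threshold fell from 4 to 0 without control 3 and on each side of the split, and relations with scores from 4 to 1 and 0. The cause of these changes was not tested.

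Case and control numbers did not pair the dogs: over 13 pairs the correlation of their deviations was −0.68 to 0.44, with 1 dog closest to its own number. With the replicate block FZD7 had 0.85 (adjusted P = 0.682), FZD5 had 0.12, and 0 members and 0 genes passed. Depth limits FZD1, FZD2, FZD3 and FZD8, whose counts reach at most 3, 31, 19 and 20.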
